A study of Homo sapiens with 6 samples.

Results

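SQSTM1 and 9 other genes of selective autophagy were examined for NRF2 occupancy in HMC3 cells. The genes were given as a list of 5 cargo receptors (SQSTM1, NBR1, OPTN, CALCOCO2 and TAX1BP1), 2 ubiquitin-like proteins of the autophagosome membrane (MAP1LC3B and GABARAPL1), the kinase ULK1, the conjugation factor ATG5 and the lysosomal membrane protein LAMP2. They are 10 of the 19970 protein-coding genes on chromosomes 1 to 22 and X in RefSeq. A listed peak counted for a gene when its summit lay inside the gene or within 50 kb of either end. By that rule 10 peaks were found, and 7 of them lay at SQSTM1.

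HMC3 is an immortalised human microglial cell line. Chromatin was immunoprecipitated with an antibody to NRF2 (clone D1Z9C) and sequenced (ChIP-seq) in 2 libraries of cells treated for 4 h with 30 nM CDDO-Im, a triterpenoid NRF2 activator, and in 2 vehicle libraries. The groups follow the sample titles, because the treatment text is the same for every sample. All libraries come from this 1 cell line, and neither transcripts nor marker proteins were measured, so the label was not checked against microglial markers. Nothing in the labels states that replicates were separate cultures, so the spread between libraries may be technical.

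In selective autophagy, receptors bind ubiquitin-tagged cargo on one side and LC3 or GABARAP proteins of the growing membrane on the other. The enclosed cargo is then broken down in lysosomes. SQSTM1 is such a receptor and also binds KEAP1, the adaptor that marks NRF2 for degradation. NRF2 acts as a dimer with small MAF proteins on antioxidant response elements, and SQSTM1 is a known NRF2 target gene in other cells.

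SQSTM1 lies on the plus strand of chromosome 5 (GRCh38, 179806393 to 179838078) and has 3 annotated starts in the RefSeq promoter table. All 4 libraries listed a peak just upstream of the start at 179820905. The other starts lie further upstream, at 179806393 and 179807009, so the peak is inside the gene as RefSeq draws it. The sequence below is shown because it is the stretch of the RefSeq promoter window (GRCh38.p14, chr5:179820655-179820871, plus strand) that lies inside the peak of CDDO-Im 2. It runs from 250 to 34 bases before the start. Capitals mark the 137 bases that also lie inside the peak of CDDO-Im 1.
SQSTM1 promoter: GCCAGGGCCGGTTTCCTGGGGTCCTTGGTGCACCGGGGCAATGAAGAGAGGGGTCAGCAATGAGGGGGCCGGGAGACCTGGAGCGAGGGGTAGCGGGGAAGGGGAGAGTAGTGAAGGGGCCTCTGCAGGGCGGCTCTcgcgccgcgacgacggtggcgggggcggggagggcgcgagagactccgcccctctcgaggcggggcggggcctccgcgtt
The vehicle 2 peak covered the first 11 of these bases and the vehicle 1 peak none. The stretch has a GC content of 73.3%, and the whole SQSTM1 window that holds it has 73%. All promoter windows of protein-coding genes have a median of 62.3%, and 17.4% of them have at least the GC content of this SQSTM1 window.

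The core of the antioxidant response element, searched as TGACNNNGC on both strands, did not occur in any of the 3 SQSTM1 windows. Neither did TGANTCA, the AP-1 type element, which reads the same on both strands and can overlap the core. The first was found in 13.8% and the second in 6.15% of 22131 windows of 300 bases. The summits of the SQSTM1 peaks lay 341 to 364 bases before the start and so outside the window, whose sequence begins 250 bases before it. Their own sequence was not analysed here. Of the 15 windows of 9 listed genes (all but LAMP2), 2 held the core. They are shown 5′ to 3′ on the gene's strand, with the match in capitals. MAP1LC3B lies at chr16:87392280-87392308 and CALCOCO2, where the match is on the opposite strand, at chr17:48830896-48830924.
MAP1LC3B promoter: gcgagtcaccTGACCAGGCtgcgggctga
CALCOCO2 promoter: cgctcctgggGCCCGGTCAcctgaacact
Neither window held a listed peak. A match is a description of the letters and not an occupied site.

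The SQSTM1 region held more NRF2 tags in both CDDO-Im libraries than in both vehicle libraries. Tags are the sequenced fragments stacked at a summit, recovered from the deposited fold enrichment and p-value. The peaks held 23 and 53 tags in CDDO-Im 1 and 2, against 9 and 6 tags in vehicle 1 and 2. Divided by the lowest background of each library, a measure of depth, these were 69.3 and 144 in CDDO-Im 1 and 2, against 28.5 and 19.1 in vehicle 1 and 2. The groups did not overlap. The same order was seen in 87.0% of 230 regions that all 4 libraries listed outside megabases of more than 20 regions. The lower CDDO-Im library lay 2.43-fold above the higher vehicle library, and libraries of 1 group differed 2.08-fold in CDDO-Im and 1.5-fold in vehicle.

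**Figure D1:**
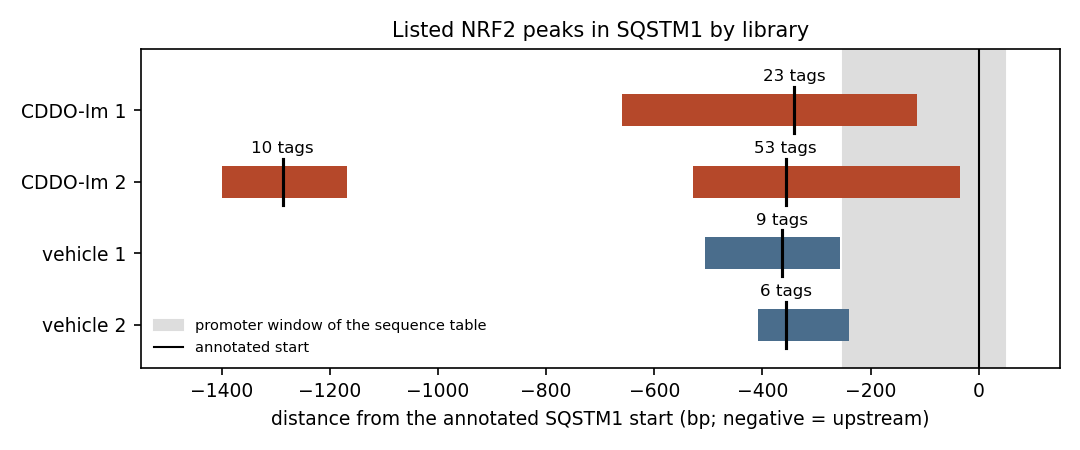
Peaks listed inside SQSTM1 (bars) with their summits (black ticks) and tags, by library, against distance from the annotated start in bp. The 4 summits lie within 23 bp of each other, 341 to 364 bp upstream of the start, and only CDDO-Im 2 has another peak 1287 bp upstream.

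On the log2 scale, tags over background at SQSTM1 averaged 6.64 ± 0.75 in CDDO-Im and 4.54 ± 0.41 in vehicle (SD, n = 2 each). The difference was 2.10, or 4.29-fold higher with CDDO-Im, with an exact permutation p of 0.333 (two-sided). This is the smallest p that 2 libraries against 2 can give, so the design cannot reach 0.05. The summed tags, 76 in CDDO-Im and 15 in vehicle, gave a ratio over background of 4.57 with an exact 95% interval of 2.60 to 8.56, which covers counting error only. Exact Poisson intervals for tags over background were 44.0 to 104 in CDDO-Im 1 and 108 to 189 in CDDO-Im 2, against 13.0 to 54.1 in vehicle 1 and 7.0 to 41.5 in vehicle 2. The intervals of CDDO-Im 1 and vehicle 1 thus overlap.

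The authors' deposited values for the same peaks run in the same order. The tags were recovered from these values, so the shared order is not separate evidence. The deposited fold enrichment at SQSTM1 was 17.7 and 26.8 in CDDO-Im 1 and 2, against 7.45 and 4.16 in vehicle 1 and 2. The deposited −log10 p was 34.6 and 71.4 in CDDO-Im 1 and 2, against 11.4 and 5.12 in vehicle 1 and 2. The deposited −log10 q was 29.8 and 66.3 in CDDO-Im 1 and 2, against 6.78 and 1.87 in vehicle 1 and 2. The vehicle 2 peak was therefore near the end of its list, where peaks were listed down to a −log10 q of 1.3. Within each list by fold enrichment the peak ranked 300 of 4024 in CDDO-Im 1 and 276 of 12433 in CDDO-Im 2, against 290 of 4227 in vehicle 1 and 6514 of 7448 in vehicle 2. Lists of such different lengths show no change by rank.

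The background around the SQSTM1 peak differed between replicate numbers. The local background was 1.08 times the lowest background of the library in CDDO-Im 1 and 2.76 times in CDDO-Im 2, against 1.08 times in vehicle 1 and 2.17 times in vehicle 2. Divided by this local background, which itself varies with depth, the log2 difference between CDDO-Im and vehicle was 1.93. Tags with no scaling gave 2.25, so the direction was the same without a measure of depth. The peaks were 547 and 496 bp wide in CDDO-Im 1 and 2, against 251 and 169 bp in vehicle 1 and 2. All 4 peaks shared 152 bp (179820497 to 179820648), and the joined region ran over 627 bp (179820245 to 179820871).

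Few genes had an NRF2 region so close to a start. Of the 15811 protein-coding genes with a start in the promoter table, 7 (0.0443%) had a region of all 4 libraries with a summit within 1000 bp of a start, and SQSTM1 was 1 of them. Within 500 bp there were 4 (0.0253%), IFRD1, NQO1, PARP2 and SQSTM1, named after their values were seen. NQO1 is the quinone reductase long used as a marker of NRF2 activity. Regions of both CDDO-Im libraries lay within 1000 bp of a start at 30 genes (0.190%) and regions of both vehicle libraries at 8 (0.0506%). These distances were chosen after the position of the SQSTM1 peak was known, so the counts describe it and test nothing.

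Among regions listed in all 4 libraries, SQSTM1 had a ratio above the median. Its tags over background were lower than at most regions in CDDO-Im 1 and both vehicle libraries, and near the middle in CDDO-Im 2. Outside dense megabases, which hold more than 20 joined regions each, there were 230 such regions, and in 87.0% the lower CDDO-Im value exceeded the higher vehicle value. The direction at SQSTM1, whose megabase held 7 regions, was therefore the usual one. Their CDDO-Im to vehicle ratio had a median of 3.2 (quartiles 2.35 and 3.89), and 34 of the 230 regions (14.8%) had a larger ratio than SQSTM1. Of the 230 regions, 172 had more tags over background than SQSTM1 in CDDO-Im 1 and 118 in CDDO-Im 2, against 151 in vehicle 1 and 222 in vehicle 2. The 230 regions include some with high tags in every library and little difference between the groups. On chromosome 1, for example, 125178823 to 125180893 held 1028 and 822 over background in CDDO-Im 1 and 2. Vehicle 1 and 2 held 1055 and 925 there. Such regions were not removed from these counts or from the median.

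**Figure D2:**
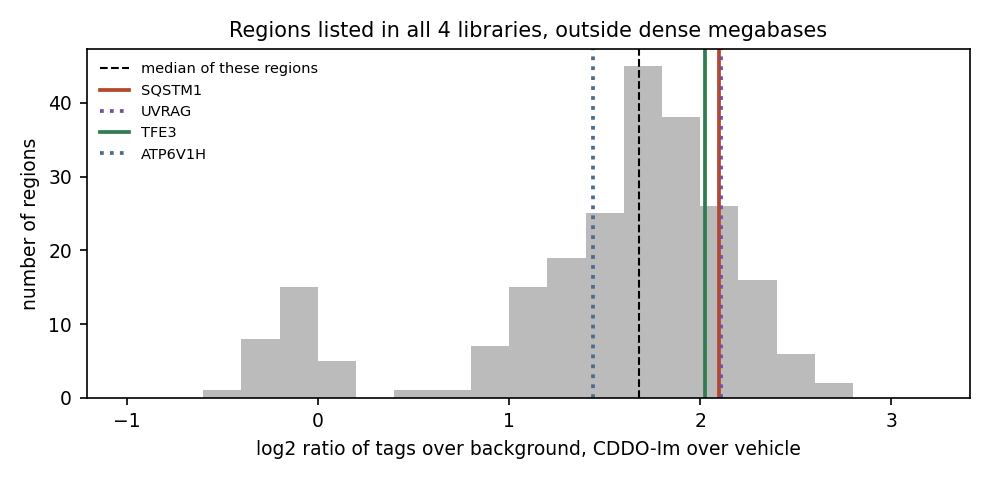
Number of regions (y axis) by log2 ratio of tags over background, CDDO-Im over vehicle (x axis), for the 230 regions that every library listed and that lie outside dense megabases. Vertical lines mark the median ratio of 3.2-fold and the regions at SQSTM1 (2.10 on the log2 scale), UVRAG (2.11), TFE3 (2.02) and ATP6V1H (1.44).

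Likeness to SQSTM1 in the 4 tag levels was measured as the Euclidean distance between log2 tags over background in the 4 libraries. The closest region (distance 0.25) held 25 and 53 tags in CDDO-Im 1 and 2, against 9 and 7 tags in vehicle 1 and 2. It lay on chromosome 2 (111321028 to 111321385), 73002 bp from the nearest gene, LOC124907867. The next 4, at Euclidean distances of 0.42 to 0.59, lay nearest to MAP10, RPLP1, NPRL3 and TNS1. Only the NPRL3 region was inside its gene. The others lay 1132 bp outside MAP10, 55035 bp outside RPLP1 and 367735 bp outside TNS1. The region inside UVRAG, an autophagy gene described further on, came 7th of 229 at a distance of 0.60, close to the fifth.

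A further 3 peaks were counted at SQSTM1, each in 1 library. The first, in CDDO-Im 2 (179819506 to 179819736), had its summit 1287 bp before the same start with 10 tags, a fold enrichment of 6.24, a −log10 p of 9.20 and a −log10 q of 5.66. Its local background was 2.07 times the lowest of the library. The second, in CDDO-Im 2 (179766388 to 179766576), lay 39892 bp outside the gene with 11 tags, a fold enrichment of 7.93, a −log10 p of 12.4 and a −log10 q of 8.63. The last, in vehicle 1 (179772341 to 179772541), lay 33930 bp outside with 6 tags, a fold enrichment of 5.32, a −log10 p of 7.33 and a −log10 q of 3.25. Both of these outer summits lie inside MAML1, a coactivator of Notch signalling, and LTC4S, the gene of leukotriene C4 synthase, lies between them and SQSTM1.

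Of the other cargo receptors, only TAX1BP1 had a peak in the gene or within 50 kb. Most protein-coding genes had none either, since 31.5% had a peak of any library there. TAX1BP1, a receptor for protein aggregates, had 1 peak inside the gene, in CDDO-Im 2 alone (chromosome 7, 27808720 to 27808896), with 5 tags. Its fold enrichment was 4.39, its −log10 p 5.60 and its −log10 q 2.47, and it ranked 10745 of 12433 by fold enrichment. The summit lay 68644 bp downstream of the nearest annotated start. Outside that library the nearest summits lay 364 kb away in CDDO-Im 1, against 1208 kb in vehicle 1 and 246 kb in vehicle 2.

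NBR1, OPTN and CALCOCO2 had no peak of any library in the gene or within 50 kb. NBR1, a receptor for aggregates and peroxisomes, lay 241 kb from the nearest summit in CDDO-Im 1 and 2, against 241 kb in vehicle 1 and 63.7 kb in vehicle 2. OPTN, a receptor for damaged mitochondria and bacteria, lay 2316 and 708 kb from the nearest summit in CDDO-Im 1 and 2, against 5143 kb in vehicle 1 and 2. CALCOCO2, a receptor for bacteria, lay 180 and 174 kb from the nearest summit in CDDO-Im 1 and 2, against 469 kb in vehicle 1 and 2. The lists differ in length, so these distances do not compare the groups.

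Of the membrane proteins, MAP1LC3B (LC3B, the protein that receptors bind and that marks autophagosomes) had 1 peak in CDDO-Im 1 alone. It lay 4665 bp before the annotated start (chromosome 16, 87387581 to 87387786), with 5 tags, a fold enrichment of 4.51, a −log10 p of 5.86 and a −log10 q of 2.29. The summit is inside the neighbouring gene FBXO31 and nearer to a start of FBXO31, at 3895 bp. In CDDO-Im 2 the nearest summit lay 456 kb away. GABARAPL1, a relative of LC3B, had no peak within 50 kb, and its nearest summits lay 196 and 162 kb away in CDDO-Im 1 and 2, against 1347 and 820 kb in vehicle 1 and 2.

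Of the machinery that starts and completes the autophagosome, only ATG5 had a peak in range, as did 31.5% of all protein-coding genes. The ATG5 peak lay inside the gene in vehicle 2 alone (chromosome 6, 106275763 to 106275931). It had 5 tags, a fold enrichment of 4.56, a −log10 p of 5.99 and a −log10 q of 2.51. ATG5 joins ATG12 to drive LC3 lipidation. ULK1, the kinase that starts autophagy, had none within 50 kb. A region just outside that distance, 64.1 kb from ULK1 in both CDDO-Im libraries (chromosome 12), was listed with 13 and 11 tags in CDDO-Im 1 and 2, against 7 tags in vehicle 2 and no peak in vehicle 1. LAMP2, on chromosome X, had its nearest summit 1295 kb away in CDDO-Im 1 and 2, against 6062 kb in vehicle 1 and 9795 kb in vehicle 2. The peak counted farthest from its gene was the SQSTM1 peak at 39892 bp, and the nearest left out was a 5-tag peak of vehicle 2, 63.7 kb from NBR1.

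**Figure D3:**
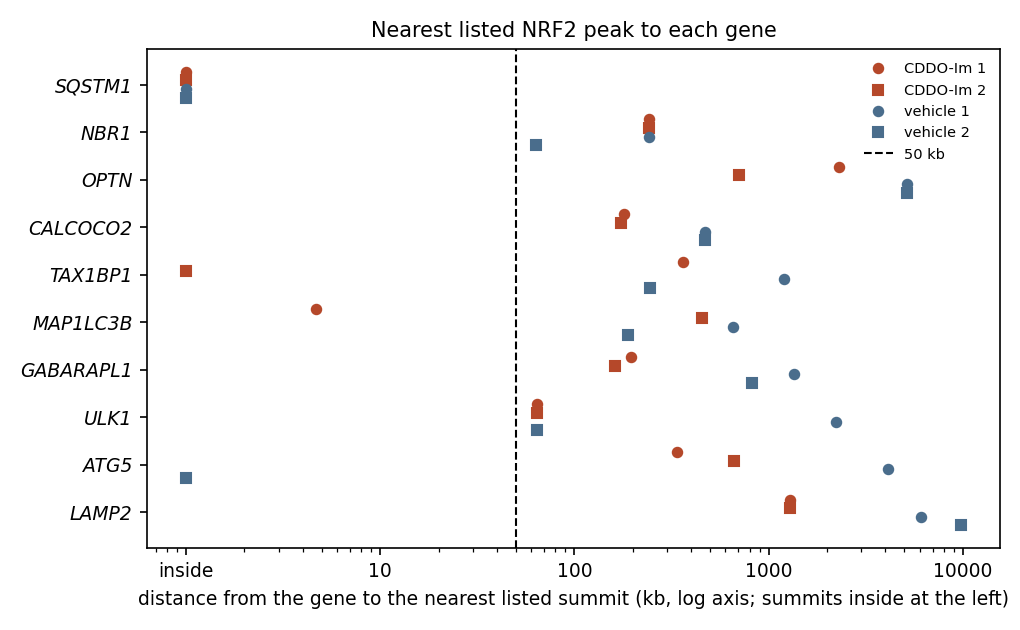
Distance in kb (log axis) from each of the 10 genes to the nearest listed summit in each library, with summits inside the gene at the left edge and the 50 kb limit as a dashed line. SQSTM1 alone has a summit inside the gene in all 4 libraries, and 6 genes have no summit left of the line. Of all protein-coding genes, 31.5% have a peak of any library within that limit.

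The peaks at TAX1BP1, MAP1LC3B and ATG5 rested on 5 tags each at the lowest background of their library, where peaks were listed from 4 tags. The exact 95% Poisson interval of 5 tags is 1.62 to 11.7, and none of these peaks was repeated in the other library of its group. A site with fewer tags goes unlisted, so the lists do not show that NRF2 was absent from the genes without a peak.

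Counted over the 10 genes, there were 2 peaks in CDDO-Im 1 and 4 in CDDO-Im 2, against 2 in vehicle 1 and 2 in vehicle 2. On the log2 scale with 1 added, the difference was 0.37 (exact permutation p = 1, two-sided, n = 2 each). Leaving out CDDO-Im 2 gave 0 and leaving out CDDO-Im 1 gave 0.74. Peaks of CDDO-Im 1 lay at 2 genes (background 16.4% of all protein-coding genes) and of CDDO-Im 2 at 2 (23.0%), against 1 in vehicle 1 (6.66%) and 2 in vehicle 2 (7.53%). In all, 4 of the 10 genes had a peak of any library, where 31.5% of all genes did.

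A region of both CDDO-Im libraries was found at 1 of the 10 genes (10.0%), SQSTM1, which is close to the 11.6% of all protein-coding genes. A region of both vehicle libraries was found at 1 of 10, again SQSTM1, where 1.81% of all genes had one. None of the 10 had a region of both CDDO-Im and neither vehicle library (7.56% of all genes) or the reverse (0.0451%). When 1 library stood for its group, the first count was 2 without CDDO-Im 1 (SQSTM1 and TAX1BP1, against 23.0% of all genes). It was 2 without CDDO-Im 2 (SQSTM1 and MAP1LC3B, against 16.4%). The vehicle count was 2 without vehicle 1 (SQSTM1 and ATG5, against 7.53%). The regions searched had a median of 136 kb for the 10 genes and 124 kb for all genes, and longer genes have more room for a peak.

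A wider list of 67 autophagy and lysosome genes was set beside these. A region of both CDDO-Im libraries lay at 8 of the 67 (11.9%, against 11.6% of all genes). They lay on 7 regions, since WDR45 and TFE3 share one, and include UVRAG, ATG9A, FUNDC1, STX17 and ATP6V1H. The count was 22 without CDDO-Im 1 (32.8%, against 23.0% of all genes) and 11 without CDDO-Im 2 (16.4%, against 16.4%). A region of both vehicle libraries lay at 4 of the 67 (5.97%, against 1.81%), on 3 regions, which were also those of all 4 libraries (5.97%, against 1.78% of all genes). At 2 of the 67, a region was shared by the CDDO-Im libraries and listed in no vehicle library (2.99%, against 7.56%). FUNDC1 was among them. Searched lengths had a median of 136 kb for the 67 genes and 124 kb for all genes, and the shares were not adjusted for length.

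TFE3, a transcription factor of lysosome and autophagy genes, had the region with the most tags of both lists. It lay inside the gene (chromosome X, 49039760 to 49040222), 3359 bp from the nearest TFE3 start, and held 49 and 87 tags in CDDO-Im 1 and 2, against 15 and 14 in vehicle 1 and 2. Over background these were 148 and 237 in CDDO-Im 1 and 2, against 47.5 and 44.5 in vehicle 1 and 2. The groups did not overlap, which was also so in the same direction in 87.0% of the 230 regions above. CDDO-Im was 4.07-fold higher on average (exact permutation p = 0.333, two-sided). The same region lies 34444 bp outside WDR45, a protein of early autophagosome membranes, and the peaks do not tell which gene it belongs to.

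UVRAG, a partner of Beclin 1 in the lipid kinase complex of autophagy, had a region within its body, 109008 to 109054 bp from the nearer end (chromosome 11, 76035012 to 76035400). It held 31 and 53 tags in CDDO-Im 1 and 2, against 9 and 8 in vehicle 1 and 2, a 4.31-fold ratio over background with no overlap (exact permutation p = 0.333, two-sided). ATP6V1H, a subunit of the proton pump that acidifies lysosomes, had an intragenic region (chromosome 8, 53768208 to 53768613). It held 30 and 42 tags in CDDO-Im 1 and 2, against 14 and 10 in vehicle 1 and 2, a 2.71-fold ratio with no overlap (exact permutation p = 0.333, two-sided). Its ratio was below the median of the 230 regions. In 87.0% of those regions both CDDO-Im values lay above both vehicle values, so the lack of overlap at UVRAG and ATP6V1H was usual. Adjusted by Benjamini-Hochberg over these 3 regions and SQSTM1, 4 in all, each exact permutation p stayed at 0.333.

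**Figure D4:**
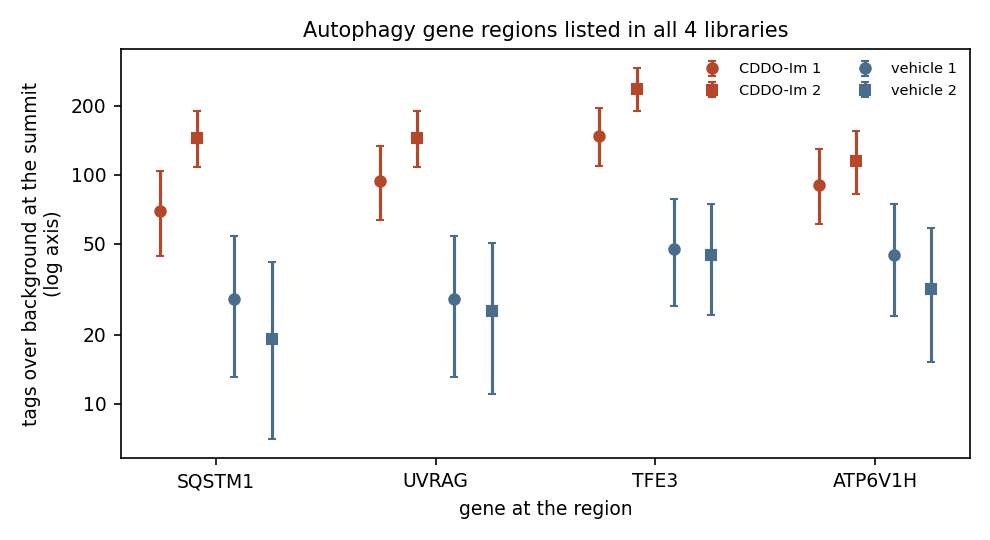
Tags over background (log axis) at the SQSTM1, UVRAG, TFE3 and ATP6V1H regions, with exact 95% Poisson intervals, CDDO-Im in red and vehicle in blue, replicate 1 as circles and replicate 2 as squares. In each region the CDDO-Im points lie above the vehicle points, at SQSTM1 69.3 and 144 against 28.5 and 19.1. The same order was seen in 87.0% of the 230 regions that every library listed outside dense megabases.

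Other regions of both CDDO-Im libraries were missed by 1 or both vehicle libraries. The region counted for ATG9A, which carries lipid to growing autophagosomes, held 14 and 34 tags in CDDO-Im 1 and 2, against 8 in vehicle 1 and no peak in vehicle 2. Its summits lay 1404 to 1433 bp outside ATG9A and inside ABCB6, a porphyrin transporter, 982 to 1011 bp from a start of ABCB6. STX17, which fuses autophagosomes with lysosomes, had a region 39206 to 39270 bp outside the gene and inside ERP44, a chaperone of the secretory pathway, with 8 and 24 tags in CDDO-Im 1 and 2, against 4 in vehicle 2 and no peak in vehicle 1. FUNDC1, a receptor for damaged mitochondria, had 15 and 17 tags in CDDO-Im 1 and 2 and no vehicle peak, 27828 to 27875 bp outside the gene.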

How the data were processed

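The authors deposited 1 peak list per immunoprecipitated library. Its fold enrichment at the summit is the authors' ratio. The lists also hold the authors' −log10 p and −log10 q, and a deposited score of 10 times the −log10 q. The submitters' processing notes name MACS2 2.2.7.1, BWA 0.7.17 and bcl2fastq 2.15.0 as tools and GRCm38 besides hg38 as builds, and positions here are on hg38. Control, duplicate handling and threshold: not given in the sources used here. The 2 input samples were not analysed here.

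The lists held 4024 and 12433 peaks for CDDO-Im 1 and 2, and 4227 and 7448 for vehicle 1 and 2. The tags of every summit were worked out from the peak caller's formulas: the fold divides tags by background, each with 1 added, and p is the Poisson probability of more tags. Whole tags matched 100% of peaks (tolerance 0.001 plus 0.0002 of the value). The best match was used. The lowest recovered background, 0.332 and 0.367 tags in CDDO-Im 1 and 2 and 0.316 and 0.315 in vehicle 1 and 2, served as depth, because the lists hold no library totals. Low tags limit precision: peaks had a median of 7 to 10. PCR duplicates cannot be told from separate fragments, so intervals cover counting error only.

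Peaks overlapping by at least 1 bp formed a region. Genes come from RefSeq (GRCh38.p14), as do the promoter windows (250 bases before to 50 after a start). All 67 symbols of the wider list matched, and 1 gene counted there is not reported here. Libraries were compared by exact permutation on log2 values (Python 3.11.15, SciPy 1.17.1). The procedure was tested on simulated data, with tags recovered at 500 of 500 simulated peaks. The simulated peaks were made with the same formulas, so this checks the code and not the formulas. Named were all 10 genes, the wider-list genes where the CDDO-Im libraries shared a region, and the 5 regions nearest to SQSTM1 in tag levels. Genes and lists were chosen with earlier results of these data known. Alternatives changed the window, the q threshold, the overlap, dense megabases, the scaling, the replicate block and the libraries used.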

Additional observations from a re-analysis of the deposited data

How the results depend on the processing

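At SQSTM1 the log2 ratio of CDDO-Im to vehicle kept its direction under all 10 alternatives. Leaving out a library or using a replicate block could not reverse it, because both CDDO-Im values lay above both vehicle values. Other scalings reuse the same peaks, so they are not independent checks. The log2 ratio was 1.93 to 2.25 over other scalings, with both CDDO-Im libraries above both vehicle libraries in 5 of 5. It was 1.57 to 2.63 when 1 library was left out. With a replicate block it was 2.10 (exact sign-flip p = 0.5, the smallest that 2 pairs can give), and for peak numbers 0.37. No label pairs the replicate numbers. Deviations of same-numbered libraries correlated at -0.04 over 230 regions, but with few tags per peak this cannot exclude a pairing. At SQSTM1 the local background was 1.08 times the lowest in both CDDO-Im 1 and vehicle 1. Whether same-numbered libraries share a control was not tested. The peak-number difference was 0 to 0.74 when a library was left out, 1 when peaks needed a −log10 q of 5 (exact permutation p = 0.667) and 1 when they needed 10 (1 peak in each CDDO-Im and 0 in each vehicle library, exact permutation p = 0.333). Of the 10 genes, those where the CDDO-Im libraries shared a region were 2 with a 100 kb window (ULK1 was added, and 18.8% of all genes had such a region) and 1 to 2 without a library (11.6% to 23.0% of all genes). Those with a region of both vehicle libraries were 0 when peaks needed a −log10 q of 5 (1.18% of all genes) and 0 when they needed 10 (0.396%), and 1 to 2 without a library (1.81% to 7.53% of all genes). Those with a region of both CDDO-Im and neither vehicle library were 1 (SQSTM1) when peaks needed a −log10 q of 10 (5.32% of all genes) and 0 to 2 without a library (8.17% to 19.5%). In the wider list the CDDO-Im libraries shared a region at 5 genes with a 10 kb window (7.46%, against 5.79% of all genes), 5 with 25 kb (7.46%, against 8.07%), 14 with 100 kb (20.9%, against 18.8%), and 8 to 22 without a library (11.9% to 32.8%, against 11.6% to 23.0%). The alternatives for the wider list and for the distance to a start were chosen after seeing the data. No other listed gene had a region in both groups within 50 kb, so that planned comparison gave no value. With few tags per peak, listing in vehicle depends on the threshold.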
